A study of Mus musculus with 4 samples.

Results

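Among the inflammatory genes profiled in ischemic mouse hindlimb muscle, *Mif*, *Nampt*, *Aimp1*, *Il16* and *Csf1* encode cytokines that many cell types are known to make. The wells of these 5 genes were taken by symbol from 84 target genes, with earlier results of these data known. The genes were read on a Qiagen RT2 Profiler array, a plate of SYBR Green RT-qPCR assays for cytokines, chemokines and their receptors. All 5 gave a reading on all 4 arrays, as did 77 of the 84 target genes. The comparison was between FVB mice (FVB/NJ in the study's methods) that received intramuscular E-sel/AAV2/2, an adeno-associated virus vector carrying murine E-selectin, and FVB mice that received LacZ/AAV2/2, the same vector with a bacterial reporter gene. The study's mice as a whole were young adults of both sexes. Both groups had the femoral vessels interrupted and L-NAME, a nitric oxide synthase inhibitor, given at 40 mg/kg. Adductor and gastrocnemius muscle was taken on day 21. The series' design text states that RNA of 3 mice was pooled for each group and that the array was run on it in duplicate, whereas the study's methods give a range for the mice per group and mention no pool. The arrays of a group were therefore taken as 2 runs of 1 pool. The SDs, SEs and p-values given here then hold the error of the assay alone and describe 2 pools, not the animals, and if the arrays came from different mice they hold the spread between those mice too. The SEs, confidence intervals and p-values also borrow from the spread of the other genes, so they are not the repeat error of 1 gene. The sexes within each pool and the promoter that drove the vector's gene were not given in the sources used here, and no uninjected or non-ischemic muscle was on these arrays. The panel holds no marker of muscle fibres, so the tissue could not be checked against its own genes.

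Cytokines are usually thought of as proteins that immune cells release when stimulated, but these genes also have housekeeping or constitutive roles. *Mif* encodes macrophage migration inhibitory factor, which is stored in many cells and signals through CD74 and chemokine receptors. *Nampt* encodes the rate-limiting enzyme of NAD salvage, also found outside cells as visfatin, and *Aimp1* encodes a scaffold protein of the multi-tRNA synthetase complex that can be cut to a secreted cytokine. *Il16* encodes a precursor from which a chemoattractant for CD4+ cells is cut and is best known from lymphocytes. *Csf1* encodes macrophage colony-stimulating factor, the growth and survival factor of monocytes and macrophages, made by fibroblasts, endothelium and muscle among others.

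Readings are threshold cycles (Ct), the number of PCR cycles a well needed to reach a fixed fluorescence. Abundant transcripts have an early, low Ct, and at full PCR efficiency each cycle stands for a 2-fold step. For ΔCt, the average Ct of the reference genes *Hsp90ab1*, *Gusb*, *Gapdh*, *B2m* and *Actb* was subtracted array by array, and -ΔCt is a level on the log2 scale. The arrays differed in their general readings: the median Ct of the 77 genes lay between 31.9 and 32.6 on 3 arrays and at 34.1 on LacZ/AAV2/2 replicate 1, where 46 target genes read under Ct 35 against 64 or 65 elsewhere. Averaged, the 5 reference genes were also latest there, at Ct 25.2 against 23.8 to 24.3, though *Gapdh* read earlier there, at 19.95, than on the E-sel/AAV2/2 arrays, at 20.07 and 20.36. The wells that check reverse transcription stood apart on LacZ/AAV2/2 replicate 2, with a mean Ct of 24.72 against 23.11 to 23.55 on the other arrays, while the wells that check the PCR itself lay between 21.00 and 21.19. The well that checks for genomic DNA read at Ct 37.33 and 36.13 with E-sel/AAV2/2, and at 36.86 and 39.33 with LacZ/AAV2/2.

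*Mif*, *Aimp1* and *Nampt* were among the most abundant transcripts of the panel, *Csf1* was intermediate and *Il16* was low. *Mif* had the earliest Ct of the 77 genes on 3 arrays and the second earliest on LacZ/AAV2/2 replicate 2. *Aimp1* held ranks 3 to 6 and *Nampt* ranks 4 to 6. *Csf1* held ranks 15 and 17 with LacZ/AAV2/2, and ranks 27 and 31 with E-sel/AAV2/2. *Il16* lay between rank 51 and rank 63, so that a high level in this muscle was not a feature shared by all 5 genes. Breadth of expression across tissues was not measured. Ranks compare assays of different genes, whose PCR efficiencies may differ, and they carry no test.

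**Figure D1:**
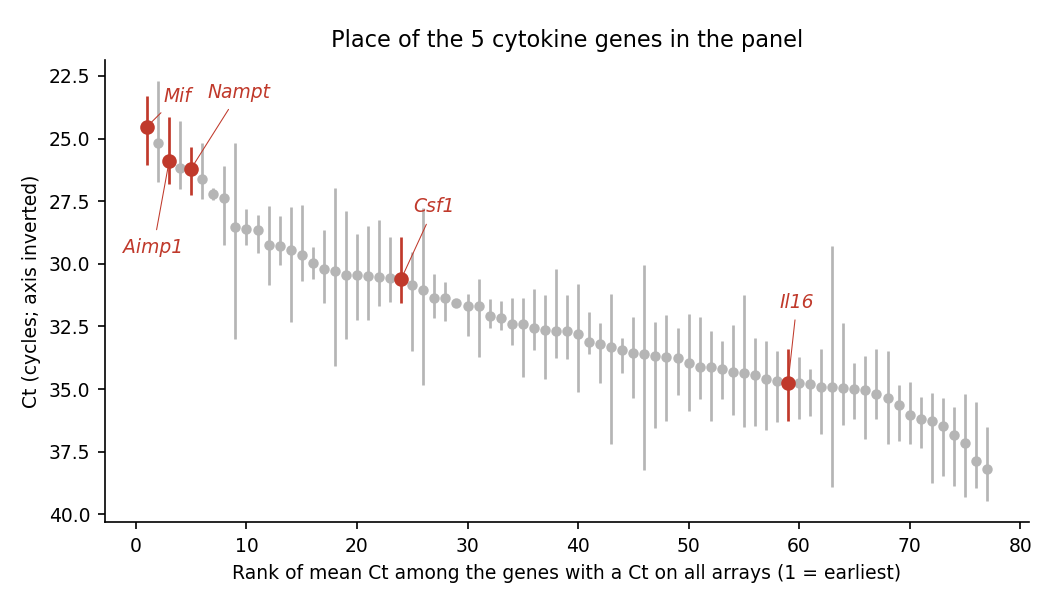
Each dot is the mean Ct over the 4 arrays (y axis, cycles, inverted so that abundant transcripts are at the top) of 1 of the 77 genes read on every array, ordered by rank (x axis), and the line spans the lowest to the highest array. In red, *Mif*, *Aimp1* and *Nampt* stand at ranks 1, 3 and 5, *Csf1* at rank 24 and *Il16* at rank 59.

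The order of the members could be read without any reference gene, from differences in Ct on the same array. In 9 of the 10 pairs the same gene was earlier on all 4 arrays. *Nampt* came 1.23 to 2.33 cycles after *Mif*, and *Aimp1* came 0.33 to 2.69 cycles after *Mif*. *Csf1* came 3.57 to 5.92 cycles after *Nampt*, and *Il16* came 2.33 to 5.38 cycles after *Csf1*. The exception was the neighbouring pair *Aimp1* and *Nampt*: *Aimp1* was later than *Nampt* by 0.16 and 0.36 cycles on the E-sel/AAV2/2 arrays and earlier by 0.47 and 1.20 cycles on the LacZ/AAV2/2 arrays. Their order over all arrays was therefore not separated beyond its spread, with a mean difference of -0.29 ± 0.70 cycles (SD, n = 4 arrays).

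The regions just before the transcription start are shown for *Mif*, *Nampt* and *Csf1*, the members with a single window in the RefSeq table. Likeness between the sequences was not measured. Each line gives the last 120 bases before the start, 5′ to 3′ on the gene's strand in the GRCm38.p6 build, at chr10:75860278-75860397 (minus strand) for *Mif*, chr12:32820215-32820334 (plus strand) for *Nampt* and chr3:107760470-107760589 (minus strand) for *Csf1*. Capitals mark letters that match, on either strand, a GC box (GGGCGG), a hypoxia response core (ACGTG) or a cAMP response element (TGACGTCA).
Mif: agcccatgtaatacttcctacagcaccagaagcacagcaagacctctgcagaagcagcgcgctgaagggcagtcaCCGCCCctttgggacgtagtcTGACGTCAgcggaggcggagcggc
Nampt: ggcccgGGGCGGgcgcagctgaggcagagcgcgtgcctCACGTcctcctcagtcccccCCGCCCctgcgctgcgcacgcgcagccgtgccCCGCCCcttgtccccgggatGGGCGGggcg
Csf1: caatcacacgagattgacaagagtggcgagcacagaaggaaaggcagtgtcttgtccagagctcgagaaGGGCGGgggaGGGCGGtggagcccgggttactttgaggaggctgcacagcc

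Over 250 bases before the start, the *Nampt* window had a GC content of 75.6% with 27 CpG dinucleotides, 5 GC boxes and 1 hypoxia response core. The *Mif* window had a GC content of 51.2% with 11 CpG, 1 GC box and 1 cAMP response element, and the *Csf1* window 56.4% with 10 CpG and 2 GC boxes. *Aimp1* has 2 windows in the table, at 60.0% and 51.2% GC with 15 and 7 CpG. *Il16* has 3, with a GC content between 48.0% and 55.2% and 2 to 7 CpG, and these do not include its outermost annotated start. No GC box or cAMP response element was found in the windows of *Aimp1* and *Il16*, and a hypoxia response core in 1 window of *Aimp1*. Of 32851 windows of the same length in the table, 32.7% held a GC box, 16.6% a hypoxia response core and 1.55% a cAMP response element, and the median window had a GC content of 52.4% and 6 CpG. A match is a description of the letters alone, and these arrays measured no binding.

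Between the pools, none of the 5 genes passed limma's test at an adjusted p-value under 0.05, with Benjamini-Hochberg adjustment over the 77 genes. Across the panel 4 genes (*Cxcl13*, *Ccr6*, *Ccl19* and *Cxcr5*), or 5.19%, passed that threshold, all higher with E-sel/AAV2/2 (0% were called lower), and at an unadjusted p-value under 0.05 the count was 10 genes, or 13%, with 0 of the 5 members. *Csf1* and *Aimp1* had lower levels on both E-sel/AAV2/2 arrays than on both LacZ/AAV2/2 arrays. Such a separation downward was seen in 26% of the panel and a separation upward in 22.1%, so 2 of 5 members was not far from what the panel as a whole gave. *Mif*, *Nampt* and *Il16* overlapped between the pools. The median log2 fold change of the 5 members was -0.32, with 2 above zero and 3 below, beside -0.19 over the 77 genes, with 36 above and 41 below. For a single gene, 0.333 is the smallest two-sided p-value that an exact permutation test of 2 arrays against 2 allows.

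**Figure D2:**
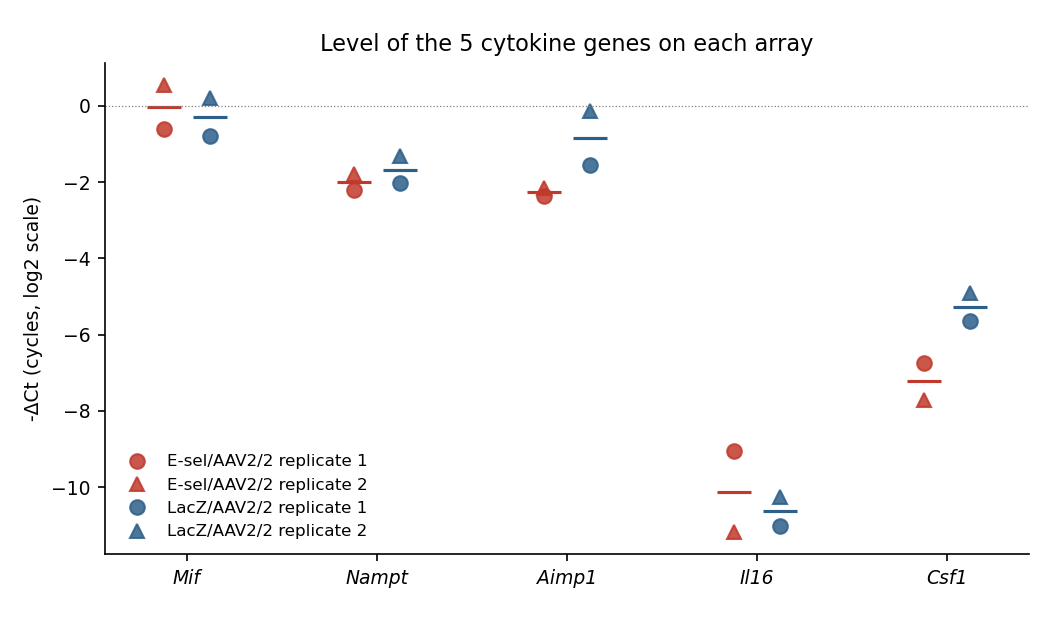
Level of each gene as -ΔCt (y axis, cycles on the log2 scale, relative to the mean of the 5 reference genes) on the E-sel/AAV2/2 arrays (red) and the LacZ/AAV2/2 arrays (blue), with circles for replicate 1, triangles for replicate 2 and a bar at the mean of the 2 arrays. The red and blue points are apart for *Aimp1* and *Csf1* and interleaved for *Mif*, *Nampt* and *Il16*.

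*Csf1*, the macrophage growth factor, showed the largest difference of the 5. The E-sel/AAV2/2 arrays read it at Ct 31.07 and 31.55, and the LacZ/AAV2/2 arrays at 30.88 and 28.92, in replicate order. Its ΔCt was 6.73 and 7.71 against 5.63 and 4.90, so that both E-sel/AAV2/2 arrays read less *Csf1* than both LacZ/AAV2/2 arrays, by at least 1.10 cycles. The means were 7.22 ± 0.69 and 5.26 ± 0.52 (SD, n = 2 arrays each), a log2 fold change of -1.96 (SE 0.97, 95% confidence interval -4.05 to 0.13, limma adjusted p = 0.366). This is a level 3.89-fold lower with E-sel/AAV2/2, the fifth lowest change of the 77 genes, and it did not pass the threshold. The 4 comparisons of 1 array with another ran from -1.10 to -2.81 on the log2 scale.

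The lower reading of *Csf1* was seen with every reference tried, though its size was not stable. Both E-sel/AAV2/2 arrays lay below both LacZ/AAV2/2 arrays with the mean of the 5 reference genes, with each of them alone, with the panel median and with raw Ct. The narrowest separation was 0.07 cycles with *Gapdh* alone, where the log2 fold change was -0.84 (limma adjusted p = 0.853) and 3.90% of the panel was separated downward. With *B2m* alone the log2 fold change was -3.40 (limma adjusted p = 0.0771), and there 63.6% of the panel was separated downward.

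*Aimp1*, the tRNA synthetase scaffold, was read at Ct 26.69 and 25.99 with E-sel/AAV2/2, and at 26.80 and 24.15 with LacZ/AAV2/2. Its ΔCt was 2.35 and 2.15 against 1.55 and 0.13. The E-sel/AAV2/2 arrays lay close together, while LacZ/AAV2/2 replicate 2 stood apart from replicate 1 toward a higher level. That array, which also gave the highest *Csf1*, is the one whose reverse transcription control read late, and the part of this in the readings was not tested. The means were 2.25 ± 0.14 and 0.84 ± 1.01 (SD, n = 2 arrays each), a log2 fold change of -1.41 (SE 0.98, 95% confidence interval -3.53 to 0.70, limma adjusted p = 0.507), or 2.66-fold lower with E-sel/AAV2/2. Without LacZ/AAV2/2 replicate 2 the log2 fold change was -0.70, and without LacZ/AAV2/2 replicate 1 it was -2.13. The arrays of the pools were apart with 6 of the 8 references tried. They overlapped with *Gapdh* alone, where the log2 fold change was -0.30, and with raw Ct, where it was -0.86. With *Gusb* alone they were apart by only 0.04 cycles, where 9.09% of the panel was separated downward. That share was 26.0% with the mean of the 5 reference genes and 63.6% with *B2m* alone.

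*Mif* was read at Ct 24.93 and 23.30 with E-sel/AAV2/2, and at 26.04 and 23.82 with LacZ/AAV2/2. Its ΔCt was 0.59 and -0.54 against 0.79 and -0.20, so *Mif* read near the average Ct of the 5 reference genes. That average includes *Gusb*, which read late, at Ct 31.20 to 32.64. On every array *Mif* read later than *Gapdh*, *B2m* and *Hsp90ab1*, and earlier than *Gusb*. In both pools replicate 2 read more *Mif* than replicate 1. The log2 fold change was 0.27 (SE 0.99, 95% confidence interval -1.85 to 2.39, limma adjusted p = 0.882). Its sign turned without E-sel/AAV2/2 replicate 2, at -0.30, and without LacZ/AAV2/2 replicate 1, at -0.23.

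*Nampt*, the NAD salvage enzyme, was read at Ct 26.53 and 25.63 with E-sel/AAV2/2, and at 27.27 and 25.35 with LacZ/AAV2/2. Its ΔCt was 2.19 and 1.79 against 2.02 and 1.33, with LacZ/AAV2/2 replicate 1 between the E-sel/AAV2/2 arrays. The log2 fold change was -0.32 (SE 0.95, 95% confidence interval -2.37 to 1.74, limma adjusted p = 0.855), and it was 0.03 without LacZ/AAV2/2 replicate 2. For *Mif* and *Nampt* the difference between the pools was smaller than its standard error, and the intervals leave room for changes of over 2-fold either way.

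*Il16* was read at Ct 33.40 and 35.02 with E-sel/AAV2/2, and at 36.26 and 34.29 with LacZ/AAV2/2, late cycles in which few template molecules enter a well. The genomic DNA control read later than *Il16* on every array, but not by much on E-sel/AAV2/2 replicate 2, at 36.13, and LacZ/AAV2/2 replicate 1, at 36.86. The ΔCt of *Il16* was 9.06 and 11.18 against 11.01 and 10.27, so the E-sel/AAV2/2 arrays held both the highest and the lowest of the 4 readings. The log2 fold change was 0.52 (SE 1.04, 95% confidence interval -1.71 to 2.75, limma adjusted p = 0.803). Set by replicate number it was 1.95 in replicate 1 and -0.91 in replicate 2, and without E-sel/AAV2/2 replicate 1 the log2 fold change was -0.54.

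**Figure D3:**
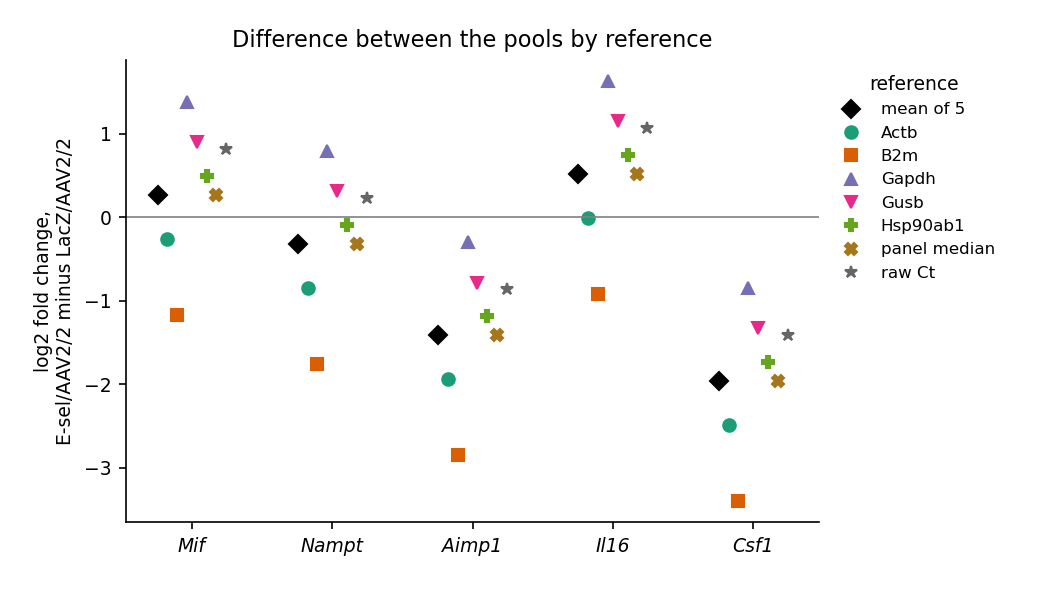
Log2 fold change of E-sel/AAV2/2 over LacZ/AAV2/2 (y axis) for each gene, with the symbol and colour showing what the Ct values were normalized to. *Csf1* and *Aimp1* stay below zero with all 8, while *Mif*, *Nampt* and *Il16* lie on both sides of zero.

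The reference genes did not move together, and this shifted all 5 members by the same amount. Relative to their common mean, *B2m* (a part of major histocompatibility complex class I) was 1.44 higher on the log2 scale with E-sel/AAV2/2, and *Gapdh* (a glycolytic enzyme) was lower by a log2 change of -1.11. With *Gapdh* alone the log2 fold change was 1.38 for *Mif*, 0.80 for *Nampt* and 1.63 for *Il16*. With *B2m* alone it was -1.18, -1.76 and -0.92. Of the 8 references, the arrays of the pools overlapped with 6 for *Mif* and for *Nampt*. Both genes were separated downward with *B2m* alone, as was 63.6% of the panel, and upward with *Gusb* alone, as was 39.0%. The arrays overlapped with 7 for *Il16*, which was separated upward with *Gapdh* alone, where 45.5% of the panel was. Neither choice brought a member past the adjusted threshold, and over all fits the adjusted p-value ran from 0.0771 to 0.908 for *Csf1*, from 0.122 to 0.960 for *Aimp1*, from 0.528 to 0.992 for *Mif*, from 0.321 to 0.991 for *Nampt* and from 0.524 to 0.993 for *Il16*.

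Comparing members with each other on the same array cancels the reference genes. *Csf1* came 6.14 and 8.25 cycles after *Mif* with E-sel/AAV2/2, but 4.84 and 5.10 cycles after it with LacZ/AAV2/2. The mean gap was 7.20 ± 1.49 against 4.97 ± 0.18 cycles (SD, n = 2 arrays each), a difference of 2.23 cycles, so that *Csf1* was the lower of the pair by more in the E-sel/AAV2/2 pool. *Aimp1* came 1.76 and 2.69 cycles after *Mif* with E-sel/AAV2/2 and 0.76 and 0.33 cycles after it with LacZ/AAV2/2. The gap between *Csf1* and *Nampt* was 4.54 and 5.92 cycles with E-sel/AAV2/2 and 3.61 and 3.57 with LacZ/AAV2/2. *Il16* came 5.38 and 5.37 cycles after *Csf1* on the LacZ/AAV2/2 arrays but 2.33 and 3.47 cycles after it on the E-sel/AAV2/2 arrays. *Csf1* and *Aimp1* kept a more even distance, 4.38 and 5.56 cycles with E-sel/AAV2/2 against 4.08 and 4.77 with LacZ/AAV2/2. The arrays of the pools did not overlap in 7 of the 10 pairs, where 54.2% of all 2926 pairs of the 77 genes did not overlap. The 10 pairs share members, and no test was made of them.

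The repeat arrays set the size of difference that could be read. In ΔCt, replicate 1 minus replicate 2 in the E-sel/AAV2/2 pool was 1.13 cycles for *Mif*, 0.40 for *Nampt*, 0.20 for *Aimp1*, -0.98 for *Csf1* and -2.12 for *Il16*, beside a median absolute difference of 0.756 cycles over the 77 genes. *Aimp1* and *Nampt* were thus closer between the arrays than the typical gene, and *Il16* ranked 70 of 77 in absolute difference. In the LacZ/AAV2/2 pool all 5 read less on replicate 1, by 1.00 cycles for *Mif*, 0.70 for *Nampt*, 1.43 for *Aimp1*, 0.74 for *Csf1* and 0.75 for *Il16*, beside a median absolute difference of 1.12 cycles. The panel as a whole leaned the same way there, with a median difference of 0.97 cycles. In raw Ct the 5 members were 1.92 to 2.65 cycles later on LacZ/AAV2/2 replicate 1 than on replicate 2, and the panel median was 2.19 cycles later. Over the panel the median absolute difference was 0.875 cycles in the E-sel/AAV2/2 pool and 1.02 in the LacZ/AAV2/2 pool for the 16 genes with a mean Ct under 30. It was 0.765 and 1.12 cycles for the 48 genes between 30 and 35, and 0.614 and 1.42 cycles for the 13 later genes, so repeats of early genes were the closest in the LacZ/AAV2/2 pool and the least close in the other.

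**Figure D4:**
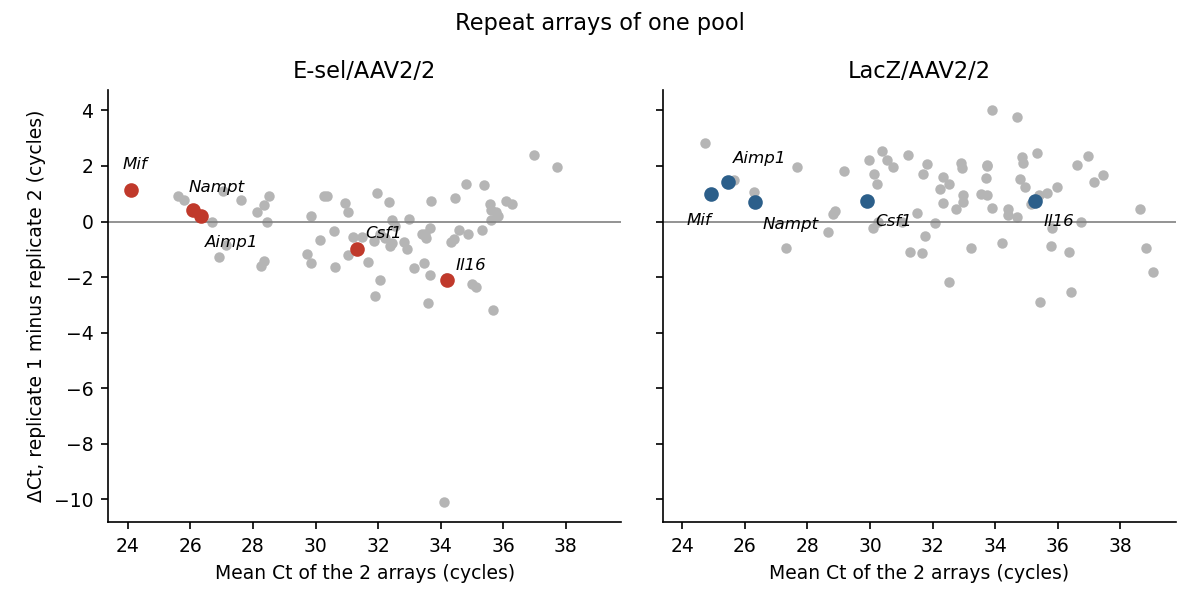
Difference in ΔCt between replicate 1 and replicate 2 of each pool (y axis, cycles) against the mean Ct of the same 2 arrays (x axis, cycles), for the 77 genes (grey) and the 5 cytokine genes (coloured). All 5 lie above zero with LacZ/AAV2/2, whereas with E-sel/AAV2/2 they run from 1.13 for *Mif* to -2.12 for *Il16*, and the grey point near -10 is *Csf2*.

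The genes nearest in pattern were found by the root mean square difference of -ΔCt, each gene centred on its own mean over the 4 arrays. Near to *Csf1* were *Il15* and *Ccl4*, at 0.318 and 0.402 cycles, beside a median of 1.14 over all genes. Nearest to *Aimp1* were *Ccl11*, *Cxcl5* and *Ccl9*, at 0.124 to 0.180 cycles against a median of 1.02. *Il16* was nearest to *Lta* and *Tnf*, at 0.206 and 0.229 cycles, and then to *Ccr4* at 0.492. *Nampt* was nearest to *Pf4*, *Il17f* and *Il27*, at 0.220 to 0.292 cycles, and *Mif* to *Il4*, *Ccl8* and *Il13*, at 0.333 to 0.352. Among the members themselves, *Mif* and *Nampt* were the closest pair at 0.404 cycles, followed by *Aimp1* and *Csf1* at 0.555, and *Mif* and *Csf1* the farthest apart at 1.34. With 4 arrays of 2 pools, likeness of this kind is a description with no test.

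Other genes with a tie to these cytokines were read on the same arrays. Of the 2 other colony-stimulating factors, *Csf2* was read at Ct 29.29 and 38.90 with E-sel/AAV2/2, and at 35.94 and 35.60 with LacZ/AAV2/2, so its repeats differed too much to place it. *Csf3*, the granulocyte factor, was read at Ct 35.88 and 35.33 against 37.36 and 36.14, with a log2 fold change of 0.60 and an SE of 0.94 (limma adjusted p = 0.745). On LacZ/AAV2/2 replicate 1 *Csf3* read later than the genomic DNA control, at 36.86. *Cxcr2*, a chemokine receptor that MIF can bind, was read at Ct 32.32 and 32.58 against 36.56 and 33.23, with a log2 fold change of 1.90 and an SE of 1.04 (limma adjusted p = 0.396). *Spp1* and *Vegfa*, secreted factors of many tissues, had log2 fold changes of -0.40 and -0.35 (limma adjusted p = 0.847 for both). None of these 5 genes passed the threshold in either direction. In ΔCt, *Csf3* and *Cxcr2* were separated upward, as was 22.1% of the panel, and *Csf2*, *Spp1* and *Vegfa* overlapped between the pools.

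Markers of infiltrating cells were read in the same pools. In bulk muscle, fewer cells of a type and less RNA per cell cannot be told apart. Of 8 lymphocyte genes (*Cd40lg*, *Cxcr3*, *Cxcr5*, *Ccr6*, *Il2rb*, *Il2rg*, *Lta* and *Ltb*), 2 (*Cxcr5* and *Ccr6*) were called higher with E-sel/AAV2/2 and 6 were separated upward, beside 5.19% called and 22.1% separated upward in the panel, with a median log2 fold change of 2.70. No gene of the panel was called with *B2m* alone, without E-sel/AAV2/2 replicate 1 or without E-sel/AAV2/2 replicate 2, so these calls ended there. The list was chosen with earlier results known and does not hold every panel gene that lymphocytes can express. Outside it, *Ccr10*, *Il5* and *Il17f* were separated downward, at log2 fold changes of -1.79, -2.18 and -0.68. *Ccr4* and *Tnfsf11* were separated upward, at 1.38 and 2.83, and *Ifng*, *Fasl*, *Il4* and *Il13* overlapped. The summed level of the 8 genes came to 25.8% and 14.5% of the reference level in the E-sel/AAV2/2 pool, against 3.52% and 3.53% in the LacZ/AAV2/2 pool. *Il16*, which lymphocytes make, overlapped between the pools with the mean of the 5 reference genes. Of 6 myeloid genes (*Ccr1*, *Ccr2*, *Il1b*, *Il1rn*, *Osm* and *Tnfsf13b*), 0 were called in either direction. Of the 6, 2 were separated downward (*Ccr2* and *Il1rn*) and 1 upward (*Tnfsf13b*), beside 26% and 22.1% of the panel, which is not far apart. Log2 fold changes were above zero for 3 and below for 3. The median log2 fold change was -0.36. Their summed level was 3.10% and 2.00% of the reference level with E-sel/AAV2/2 and 3.73% and 9.72% with LacZ/AAV2/2. Most of it was *Ccr2*, a chemokine receptor of monocytes, at 1.91% and 1.21% against 2.33% and 8.16%. Without *Ccr2* the sum was 1.20% and 0.794% against 1.40% and 1.57%. Both sums were lower on the E-sel/AAV2/2 arrays, by a log2 difference of -1.27 with *Ccr2* and -0.60 without it. The myeloid list, too, does not hold every panel gene that such cells can express. Outside it, *Ccl3*, *Ccl4* and *Ccl9* were separated downward, at log2 fold changes of -2.51, -1.28 and -1.25. *Cxcr2*, *Il1a* and *Ccl12* were separated upward, at 1.90, 1.74 and 1.40, and *Ccl6*, *Ccl2*, *Ccl7* and *Tnf* overlapped. All markers of both lists gave a Ct on all 4 arrays, but some read late. On the LacZ/AAV2/2 arrays *Cxcr5* read at Ct 38.23 and 34.99 and *Cd40lg* at 38.74 and 39.32. *Il2rb* read at 36.43 and 36.29 there and *Osm* at 35.77 and 37.09, while the genomic DNA control read at 36.86 and 39.33. *Cxcr5* is therefore absent from the fit limited to genes under Ct 35 on all arrays. The part of either cell type in the readings of *Il16* and *Csf1* was not tested.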

How the data were processed

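The authors deposited threshold cycles (Ct) per well, not normalized, with null where no Ct was recorded; baseline and threshold settings were not given in the sources used here. A second deposited table holds the authors' fold ratios of E-sel/AAV2/2 over LacZ/AAV2/2 by replicate number. Its 2 columns of ratios were not used, and only its gene symbols were read. The 89 symbols of target and reference genes all matched the RefSeq table of GRCm38.p6, the source of the printed sequences. The 5 reference genes for ΔCt and the moderated limma test on -ΔCt were those of the study's methods; averaging the reference Ct and the group as the only term were chosen here. The two-sided test (lmFit, then eBayes) was run in limma 3.58.1 and R 4.3.3, with Benjamini-Hochberg adjustment over the 77 target genes with a Ct on all 4 arrays. Full PCR efficiency was assumed and Ct values above 35 were kept. The percent of reference level is 100 times 2 to the power -ΔCt, so it is relative to the average reference Ct, with the late *Gusb* included. Nothing states that arrays of a group came from separate RNA. All 5 members were named, with the nearest 3 genes of each in pattern and the related genes and markers given, except 1 gene among them that is not reported here and was left out of the marker sums. The members, lists and settings were chosen with earlier results of these data known. Alternatives were other references, a ceiling or filter on late Ct, leaving out each array, blocking on replicate number, a mean-variance trend, reference genes tested with the targets, and a ratio of mean levels. Figures were drawn with matplotlib 3.10.9.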

Additional observations from a re-analysis of the deposited data

How the results depend on the processing

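*Csf1* and *Aimp1* stayed below zero under every alternative run, from -3.40 to -0.84 and from -2.86 to -0.30 on the log2 scale, and no member passed the adjusted threshold under any. The log2 fold change of *Mif* turned to -0.011 with *Gapdh* left out of the reference set, to -0.26 with *Actb* alone and to -1.18 with *B2m* alone, and ran from -0.30 to 0.83 with 1 array left out. That of *Nampt* turned to 0.0425 with *B2m* left out of the reference set, to 0.80 with *Gapdh* alone, to 0.31 with *Gusb* alone and to 0.23 with raw Ct, and ran from -0.67 to 0.03 with 1 array left out. That of *Il16* turned to -0.01 with *Actb* alone, to -0.92 with *B2m* alone and to -0.10 with Ct values above 35 set to 35, and ran from -0.54 to 1.58 with 1 array left out. The causes were not tested. Limiting the test to genes under Ct 35 on all arrays left out *Il16*, and the limit of Ct 30 left out *Csf1* as well, so these gave no value. The log2 difference of the lymphocyte sum was 3.19 without *Il2rg*, its most abundant gene, against 2.46 with it, an alternative chosen after seeing the data, as was the myeloid sum without *Ccr2*. The ranks of the members moved by less than their spread between arrays.

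The count of called genes in the panel was 0 with *B2m* alone (26 at an unadjusted limma p-value under 0.05), 7 with *Gapdh* or *Gusb* alone, and 0 when testing was limited to the 10 genes that read under Ct 30 throughout (0 unadjusted). Limited to the 42 genes under Ct 35 on all arrays, 5 were called, 4 higher and 1 lower with E-sel/AAV2/2, so calls were not all in 1 direction there. With 1 array left out it ran from 0 to 6: it was 0 without E-sel/AAV2/2 replicate 1 (8 unadjusted) and without E-sel/AAV2/2 replicate 2 (7 unadjusted). With the replicate block 5 genes were called, none of the 5 cytokine genes among them (*Ltb* joined the other 4), and the log2 fold change of *Csf1* was -1.96. The numbers come with no stated batch, and deviations of same-numbered arrays correlated at r = 0.332 across the 77 genes, which are not independent replicates. The mean absolute difference between LacZ/AAV2/2 repeat arrays over the 5 members was 0.920 cycles in ΔCt, 2.14 in raw Ct, 1.54 with *Gapdh* alone and 0.234 with the panel median as reference.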
